A study of Drosophila melanogaster with 4 samples.

Results

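The genes described here are the 10 dynein light and intermediate chain genes sw, Sdic2, Dic61B, ctp, Cdlc2, robl, robl22E, robl37BC, robl62A and Dlc90F of Drosophila melanogaster. They were picked by FlyBase symbol from the 17409 gene rows of the count files, and all 10 had a row and passed the filter on low counts, which 11737 genes passed. Polyadenylated RNA was measured in testis and in seminal vesicle, which was dissected with the terminal epithelium at the testis base. Both tissues came from adult males of the Oregon-R-modENCODE strain, aged 4 to 5 days, raised at 25 °C in constant light and given no treatment. Each tissue had 2 libraries from dissections on consecutive days, and the number of animals pooled in a library is not given in the sources used here. The label "seminal vesicles" covers the terminal epithelium as well, the vesicle stores mature sperm, and its libraries held germline transcripts.

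Dyneins are motors that walk along microtubules towards their minus ends. The heavy chains hold the motor, while intermediate chains and the light chains of the LC8, Roadblock and Tctex families form the tail that holds cargo or anchors the motor. Cytoplasmic dynein carries cargo and positions nuclei and spindles in most cells, and axonemal dyneins slide the microtubules of cilia and of the sperm tail. In flies the male germ line is one of very few tissues that build an axoneme, and several chain genes have testis-type relatives beside the general gene.

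The chain genes fell into contrasting groups. Dic61B, Cdlc2, robl22E, robl37BC and robl62A were higher in testis by 5.33-fold to 71.8-fold, the general LC8 gene ctp was 2.52-fold higher in seminal vesicle, and sw, Sdic2, robl and Dlc90F did not pass the test. Of the 10 genes, 5 were thus higher in testis, where 44.5% of all genes tested were, and 1 was higher in seminal vesicle, where 42.1% of all genes tested were. In either direction 86.6% of all genes passed, so passing the test was common and 6 of 10 chain genes did so. Against a 2-fold change (edgeR glmTreat) the same 5 genes stayed higher in testis, where 36.7% of all genes did, and no chain gene was higher in seminal vesicle, where 33.5% of all genes were; 70.2% passed in either direction. The median log2 fold change, testis over seminal vesicle, was 1.28 for the 10 genes and 0.11 for all genes tested. Differences were tested with edgeR's quasi-likelihood test on TMM-scaled counts with Benjamini-Hochberg adjustment over all genes, and a gene passed at an adjusted p under 0.05. Values below are TMM-normalised CPM, the reads of a gene scaled to a common library size, unless a per-length scale is named. With 2 libraries a tissue the p-values rest on the spread between these libraries, which the test pools in part over all genes. In bulk tissue, fewer cells of a type and less RNA per cell cannot be told apart.

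The testis libraries held 14088989 and 15528462 reads on genes, against 13385256 and 11120405 for seminal vesicle. Germline markers set the seminal vesicle libraries apart from each other. Summed over 6 spermatocyte and spermatid markers (betaTub85D, aly, can, fzo, dj and Mst87F), the level was 6403 and 7275 CPM in testis, against 479 CPM in seminal vesicle replicate 1 and 962 CPM in replicate 2. All 6 were higher in testis, as were all 3 early germline markers. Visceral muscle markers summed to 40.5 and 35.8 CPM in testis and to 2382 and 1665 CPM in seminal vesicle. Accessory gland and duct markers summed to 19.0 and 16.7 CPM in testis and to 392 and 183 CPM in seminal vesicle. Cyst cell and hub markers were at 75.8 and 78.9 CPM in testis against 512 and 559.7 CPM in seminal vesicle, where Fas3 made up most of the sum. Sums for neurons, fat body and haemocytes were 4.89 to 48.4 CPM in testis and 30.4 to 259 CPM in seminal vesicle. The accessory gland gene SP had no count in testis, and every other marker in the files had a count in both tissues. The part of these cells in the results below was not tested.

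**Figure D1:**
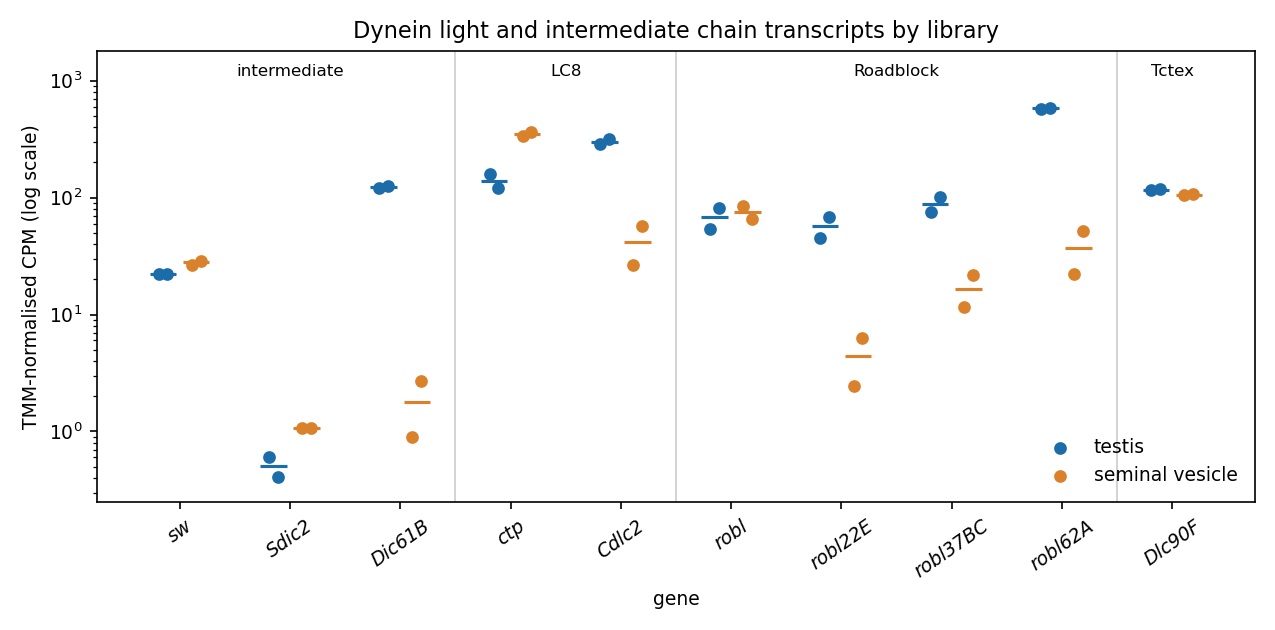
TMM-normalised CPM (log axis) of the 10 chain genes in each library, testis left of seminal vesicle, with points for libraries and bars for the mean of 2. Dic61B, Cdlc2 and the 3 Roadblock paralogs sit higher in testis, ctp sits higher in seminal vesicle, and robl overlaps between the tissues.

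Among the intermediate chains, which link the heavy chains to cargo or to the axoneme, Dic61B had the largest difference of the 10 genes. Dic61B (FBgn0263988; chromosome 3L, 149679 to 152589, minus strand of the Release 6 assembly) stood at 122 and 126 CPM in testis, against 0.898 and 2.68 CPM in seminal vesicle. The testis libraries were close to each other and far above both seminal vesicle libraries. Dic61B was 71.8-fold higher in testis (log2 fold change 6.17 ± 0.46, standard error, adjusted p = 9.1e-05), and 95.7% of all genes tested had a lower log2 fold change. Its few seminal vesicle reads, 11 and 25, decided the size of the fold. Without seminal vesicle replicate 1 the fold was 45.8, and without seminal vesicle replicate 2 it was 138, and Dic61B passed the test in both cases.

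The general intermediate chain sw (short wing, FBgn0003654; X, 20227961 to 20236382, minus strand), which serves cytoplasmic dynein, stood at 22.1 and 22.2 CPM in testis, against 26.8 and 28.9 CPM in seminal vesicle. Both testis libraries were below both seminal vesicle libraries, but such separation in one direction or the other held for 94.7% of all genes tested, and the sw difference did not pass (log2 fold change -0.33 ± 0.15, adjusted p = 0.0868). The 95% interval of the testis over seminal vesicle fold ran from 0.614 to 1.03. The sign of the sw value turned positive with library size scaling (0.052) and with spike-in scaling (0.74, adjusted p = 0.0359), and sw passed as higher in seminal vesicle without seminal vesicle replicate 1 (adjusted p = 0.0412). The test also called sw higher in seminal vesicle with a filter of 5 CPM in 2 libraries (adjusted p = 0.0331).

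Sdic2 belongs to the Sdic cluster, a set of tandem copies of a sperm-type dynein intermediate chain gene that arose in D. melanogaster from a fusion involving sw and lies beside it on the X. Sdic2 (FBgn0053497; X, 20181590 to 20186487, minus strand) had 10 and 7 reads in testis, against 13 and 10 reads in seminal vesicle. These reads made 0.603 and 0.408 CPM in testis and 1.06 and 1.07 CPM in seminal vesicle, without overlap, as for 94.7% of all genes tested. The log2 fold change was -1.07 ± 0.42 with adjusted p = 0.052, so Sdic2 was not called. Its 95% interval, which is not adjusted over genes, ran from -2.10 to -0.03. Only 3.18% of genes tested had a lower mean level. The copies are near-identical and share sequence with sw, and the files hold uniquely aligned reads, with 8.27% to 9.57% of all entries set aside as aligning to more than 1 place. How reads were split among the copies, and between the copies and sw, is therefore uncertain. The levels, folds, ratios and shares of sw carry this limit too.

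Every other row of the cluster that had reads was higher in testis. These rows were looked up with earlier results known, and 3 of them, SdicA, SdicB and SdicC, were added after the values of Sdic2 were seen. Sdic1 had 1377 and 1355 reads in testis, against 39 and 72 reads in seminal vesicle (log2 fold change 3.92 ± 0.40, adjusted p = 0.000272). SdicC had 727 and 902 reads in testis, against 14 and 21 reads in seminal vesicle (log2 fold change 4.87 ± 0.31, adjusted p = 5.69e-05). Sdic4 had 259 and 199 reads in testis, against 5 and 7 reads in seminal vesicle (adjusted p = 9.76e-05). In each of these rows both testis libraries were far above both seminal vesicle libraries. Sdic3, SdicA and SdicB had 0 reads in all 4 libraries, and among near-identical copies a count of 0 uniquely aligned reads sets no limit on their level. Summed over the 7 Sdic rows, the level was 143 and 144 CPM in testis, against 5.79 and 11.8 CPM in seminal vesicle. The Sdic rows taken as 1 gene were 16.5-fold higher in testis (log2 fold change 4.04 ± 0.38, adjusted p = 0.000192), whereas the Sdic2 row alone had a negative value that did not pass. With sw added to the same sum, the level was 165 and 166 CPM in testis, against 32.6 and 40.7 CPM in seminal vesicle (log2 fold change 2.18 ± 0.23, adjusted p = 0.000271). Per kb of exon the Sdic rows together stood at 67.7 and 67.6 CPM per kb in testis, where Dic61B stood at 46.0 and 47.8 CPM per kb. With all Sdic rows counted beside sw and Dic61B, an alternative added with the values known, Dic61B made 38.2% and 39.2% of the intermediate chains' CPM per kb in testis, against 3.06% and 6.63% in seminal vesicle. The Sdic rows made 56.2% and 55.3% in testis, against 24.1% and 36.1% in seminal vesicle. The Sdic2 row held 17 of the 4836 testis reads of the cluster and 23 of its 181 seminal vesicle reads.

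The LC8 light chains are small dimeric proteins that bind dynein intermediate chains and many other partners, and the fly has the general gene ctp (cut up) and its relative Cdlc2. They moved in opposite directions. Cdlc2 (FBgn0026141; 2L, 1344400 to 1345135, plus strand) stood at 286 and 314 CPM in testis, against 26.7 and 56.6 CPM in seminal vesicle, and was 7.22-fold higher in testis (log2 fold change 2.85 ± 0.42, adjusted p = 0.00113). The fold of Cdlc2 was 11.3 without seminal vesicle replicate 2. ctp (FBgn0011760; X, 4687800 to 4702034, plus strand) stood at 158 and 121 CPM in testis, against 336 and 366 CPM in seminal vesicle, and was 2.52-fold higher in seminal vesicle (log2 fold change -1.33 ± 0.27, adjusted p = 0.00382). Neither gene overlapped between tissues, as was so for 94.7% of all genes tested. The ctp difference did not pass a test against a 2-fold change (edgeR glmTreat, adjusted p = 0.0631), and with spike-in scaling, where the median gene moved by 1.06 towards testis, it was -0.24 and not called (adjusted p = 0.626). Relative to the median of all genes, ctp was at -1.44 with TMM and at -1.42 with spike-in scaling.

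As a share of the reads of both LC8 genes, Cdlc2 took 64.4% (95% Wilson interval 63.3 to 65.5) and 72.2% (71.1 to 73.2) in the testis libraries. In the seminal vesicle libraries its share was 7.35% (6.62 to 8.16) and 13.4% (12.4 to 14.5). The share was larger in both testis libraries than in either seminal vesicle library, with intervals apart. Intervals cover counting error only. The length used for ctp matters for a comparison per kb of exon, since its 5 annotated transcripts run from 1483 to 4416 bases while those of Cdlc2 run from 621 to 675. Per kb of the exon union, Cdlc2 was at 11.4 and 16.4 times ctp in testis, against 0.501 and 0.975 times ctp in seminal vesicle. Per kb of the median transcript it was at 4.31 and 6.17 times ctp in testis, against 0.189 and 0.368 times ctp in seminal vesicle. The log2 ratio of Cdlc2 to ctp was higher by 4.29 in testis, with SDs of 0.37 in testis and 0.68 in seminal vesicle. Gene length cancels in this difference, so it is the same on either length by construction. An exact two-sided permutation test over the libraries gave p = 0.33, the smallest that 2 libraries against 2 allow, for this pair and for the other 5 pairs of chosen genes: Dic61B and Sdic2, each over sw, and the 3 chosen paralogs of robl, each over robl.

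**Figure D2:**
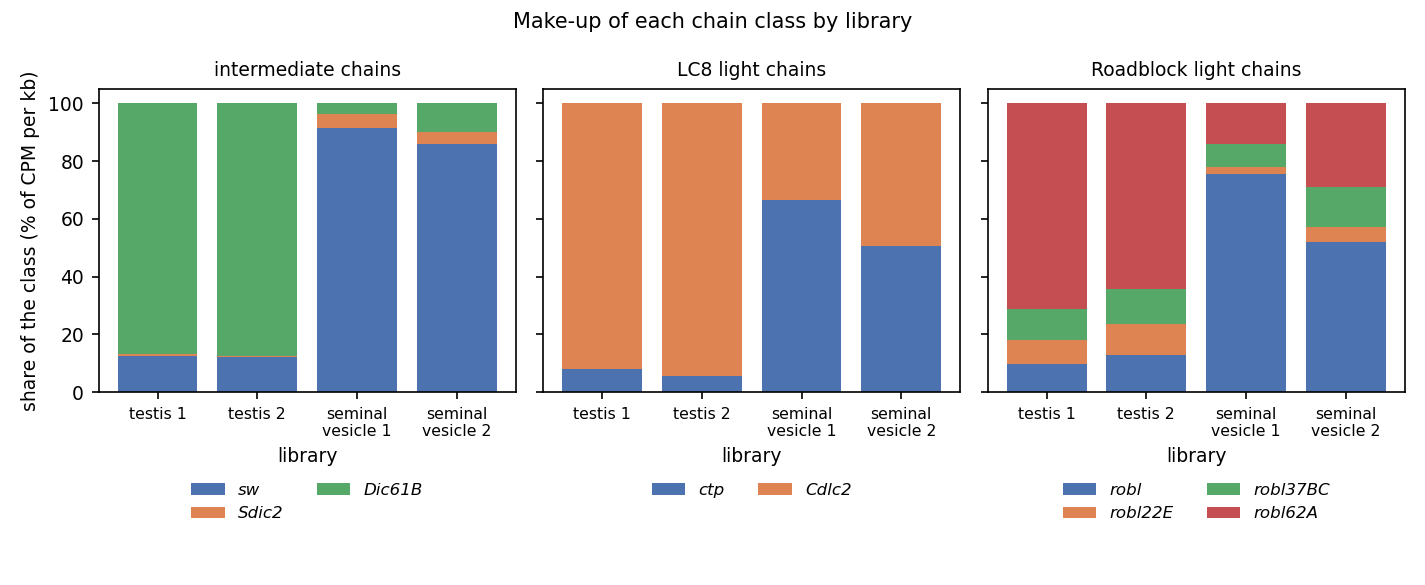
Make-up of the intermediate, LC8 and Roadblock classes in each library, as the share (%) of the class's CPM per kb of exon union, testis bars left of seminal vesicle bars. The intermediate class holds sw, Sdic2 and Dic61B alone and leaves out the other Sdic rows. Of the genes drawn, Dic61B, Cdlc2 and robl62A fill most of the testis bars, and sw, ctp and robl take the largest share in both seminal vesicle bars.

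The Roadblock light chains, also called LC7, bind the intermediate chain as dimers. The general gene robl is known for axonal transport and mitosis, and the other 3 chosen here are named only for their cytological positions. robl (FBgn0024196; 2R, 17456472 to 17457129, plus strand) stood at 54.0 and 81.7 CPM in testis, against 84.0 and 65.2 CPM in seminal vesicle. The tissues overlapped, and the difference was within the spread of the libraries (log2 fold change -0.14 ± 0.27, 95% interval -0.82 to 0.55, adjusted p = 0.655). Its sign was positive without testis replicate 1 (0.06), without seminal vesicle replicate 1 (0.05), with library size scaling (0.23) and with spike-in scaling (0.90, adjusted p = 0.0207). Spike-in scaling is confounded with tissue. Relative to the median of all genes, robl stood at -0.25 under TMM, -0.26 with library size scaling and -0.28 with spike-in scaling.

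The 3 chosen paralogs of robl were higher in testis, and none overlapped between the tissues, as was so for 94.7% of all genes tested. robl62A (FBgn0028567; 3L, 1477619 to 1478369, plus strand) had the highest level per kb of exon of the 10 genes in testis and stood at 571 and 588 CPM in testis, against 22.2 and 52.0 CPM in seminal vesicle (15.7-fold, log2 fold change 3.97 ± 0.48, adjusted p = 0.000524). robl22E (FBgn0028570; 2L, 2290224 to 2290738, minus strand) stood at 45.5 and 67.7 CPM in testis, against 2.45 and 6.32 CPM in seminal vesicle (13.3-fold, log2 fold change 3.73 ± 0.45, adjusted p = 0.000512). robl37BC (FBgn0028569; 2L, 19010866 to 19011532, plus strand) stood at 75.8 and 101 CPM in testis, against 11.5 and 21.8 CPM in seminal vesicle (5.33-fold, log2 fold change 2.41 ± 0.35, adjusted p = 0.0011). Without seminal vesicle replicate 2 the folds were 26.3 for robl62A, 23.2 for robl22E and 7.70 for robl37BC. Without seminal vesicle replicate 1 they were 11.1 for robl62A, 8.87 for robl22E and 4.02 for robl37BC.

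Per kb of exon, robl62A exceeded robl by 7.42 and 5.05 times in the testis libraries, whereas in seminal vesicle robl exceeded robl62A by 5.39 and 1.79 times. robl37BC was at 1.11 and 0.972 times robl in testis, against 0.108 and 0.264 times robl in seminal vesicle. robl22E was at 0.871 and 0.856 times robl in testis, against 0.0301 and 0.100 times robl in seminal vesicle. So robl62A alone stood well above robl in testis, with the other paralogs near the level of robl there and below it in seminal vesicle. As a share of reads of the 4 Roadblock genes chosen here, robl62A took 76.5% and 70.2% in testis, against 18.5% and 35.8% in seminal vesicle. For Dic61B over sw the ratio per kb was 6.87 and 7.11 in testis, against 0.0419 and 0.116 in seminal vesicle. The split of reads between sw and the Sdic copies is uncertain, which limits this ratio. For Sdic2 over sw, with the limits on the Sdic2 row given above, it was 0.0363 and 0.0245 in testis, against 0.0529 and 0.0494 in seminal vesicle. The log2 ratio of Sdic2 to sw was thus lower in testis, with a difference of -0.78, while those of the other 5 pairs were higher in testis.

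Dlc90F, the single Tctex-type light chain of cytoplasmic dynein among the genes chosen, which has a known role in fly spermatogenesis, was nearly level between the tissues. Dlc90F (FBgn0024432; 3R, 18299229 to 18300044, plus strand) stood at 116 and 117 CPM in testis, against 104 and 107 CPM in seminal vesicle. The testis libraries were both above the seminal vesicle libraries, by less than the test could call (log2 fold change 0.14 ± 0.21, adjusted p = 0.54). The 95% interval of the fold was 0.774 to 1.57. With spike-in scaling Dlc90F was called higher in testis (1.21, adjusted p = 0.00561), but relative to the median of all genes it stood at 0.03 under that scaling and under TMM.

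**Figure D3:**
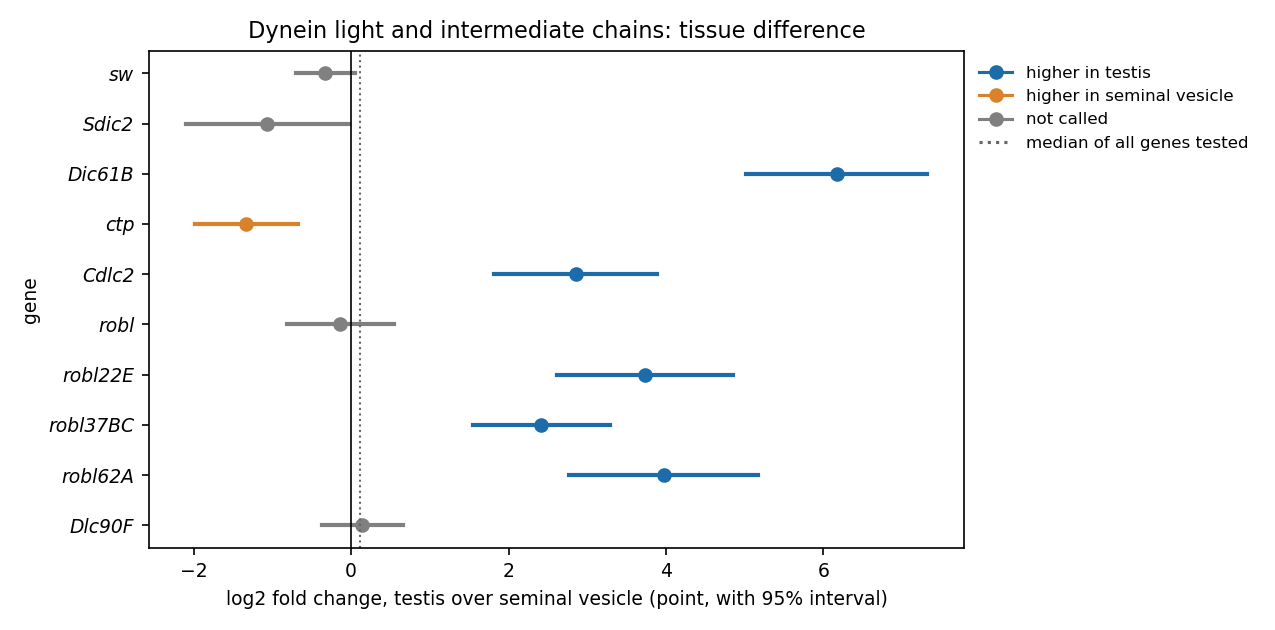
Log2 fold change of each chain gene, testis over seminal vesicle, with its 95% interval from the edgeR quasi-likelihood fit; the dotted line is the median of all genes tested (0.11). The 5 genes called higher in testis have intervals above 1.54, while those of sw, robl and Dlc90F include 0. The interval of Sdic2, which was not called (adjusted p = 0.052), runs from -2.10 to -0.03.

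The order of the genes by level per kb of exon union differed between tissues. In testis it ran from robl62A (mean 772 CPM per kb) and Cdlc2 (408) through Dlc90F (143), robl37BC (132), robl (129) and robl22E (111) to Dic61B (46.9), ctp (30.0), sw (6.71) and Sdic2 (0.204). The libraries of Dlc90F, robl37BC and robl overlapped, as did those of robl37BC, robl and robl22E. In seminal vesicle robl (141) and Dlc90F (129) led, with overlapping libraries. They were followed by ctp (75.6), Cdlc2 (56.6) and robl62A (49.4), of which neighbours overlapped. robl37BC (24.9), robl22E (8.60), sw (8.43), Dic61B (0.677) and Sdic2 (0.430) came last, with overlap between robl22E and sw and between Dic61B and Sdic2. The libraries of robl62A and robl37BC also overlapped in seminal vesicle. The place of ctp depended on the length used. Per kb of the median transcript, added with the values known, ctp stood at 98.9 and 75.9 CPM per kb in testis, above Dic61B at 46.3 and 48.1 and overlapping robl22E at 98.0 and 146. In seminal vesicle on that length ctp led the 10 genes, at 211 and 229 CPM per kb, above robl at 159 and 124. sw (mean 9.73) and robl22E (9.44), whose seminal vesicle libraries overlapped on both lengths, also changed places there, and the other genes kept their order in both tissues.

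The annotation of the 10 genes gave one further contrast. Cdlc2, robl37BC, robl62A and Dlc90F each had 1 continuous exon block and robl22E had 2, against 11 in sw, 6 in Dic61B, 5 in Sdic2, 4 in ctp and 3 in robl. Single-block genes included both Dlc90F, which was not called, and 3 genes higher in testis. No exon base of 9 of the genes was shared with another annotated gene. Of the ctp exon union, 5.62% lies within an annotated transposon copy on its own strand and 5.75% within one on the other strand.

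Seminal vesicle replicate 2 held more of the testis-type chains than replicate 1. The ratio of replicate 2 to replicate 1 in seminal vesicle was 2.98 for Dic61B, 2.58 for robl22E, 2.34 for robl62A, 2.12 for Cdlc2 and 1.89 for robl37BC. For the general chains it was 1.09 for ctp, 1.08 for sw, 1.03 for Dlc90F and 0.776 for robl, and for Sdic2 it was 1.01. The same ratio was 2.01 for the summed spermatocyte and spermatid markers, 2.03 for the summed Sdic rows and 0.699 for the muscle markers. Among the other marker sums it was 1.39 for neurons, 1.32 for fat body, 1.31 for early germline and 1.09 for cyst cells and hub. For haemocytes it was 0.640, and for accessory gland and duct 0.466. The testis-type chains thus differed between the seminal vesicle libraries in the direction of the summed spermatocyte and spermatid markers. The early germline, neuron, fat body and cyst cell sums shared that direction, by smaller ratios. Of 9 germline markers, 7 were higher in seminal vesicle replicate 2 and 2, vas and aly, were lower there. The part of germline RNA in these values was not tested.

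Set against the testis mean, robl62A stood at 3.83% and 8.96% in the seminal vesicle libraries, robl22E at 4.33% and 11.2%, Cdlc2 at 8.89% and 18.9% and robl37BC at 13.0% and 24.7%. Dic61B was lowest of the chains, at 0.724% and 2.16%. Of the germline markers, betaTub85D, the testis tubulin, was at 1.97% and 4.78%, and fzo, a spermatid mitofusin, at 0.193% and 0.557%. The sperm tail gene Mst87F was at 13.0% and 24.4%, and dj, another gene of late spermatids, was at 10.9% and 22.4%. The early germline gene vas was at 11.4% and 3.75%, and aly, a regulator of spermatocyte transcription, had 2 and 0 reads. Of the remaining markers, can was at 4.10% and 9.25%, bam at 1.71% and 4.48%, and bgcn at 1.75% and 3.99%. By this percentage Dic61B lay above fzo and below betaTub85D, bam and bgcn. On the same scale robl62A and robl22E lay near can, and Cdlc2 and robl37BC near dj and Mst87F.

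**Figure D4:**
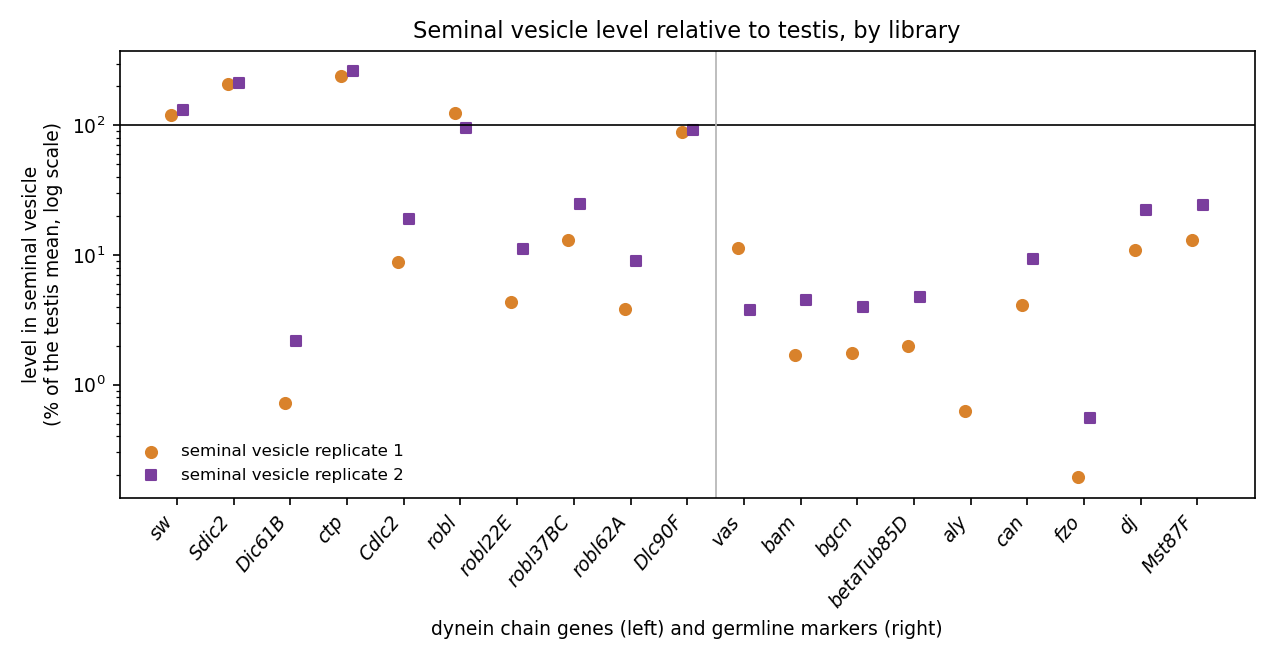
Level in each seminal vesicle library as a percent of the testis mean (log axis) for the 10 chain genes and 9 germline markers; the horizontal line marks 100%. The 5 testis-type chains lie between 0.724% and 24.7% with replicate 2 above replicate 1; aly had 0 reads in replicate 2 and has no point there.

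The other genes of the dynein system came from lists chosen with earlier results of these data known. Of 56 listed genes tested, 36 (64.3%) had higher levels in testis, against 44.5% of all genes tested, and 17 (30.4%) in seminal vesicle, against 42.1% of all genes tested. Among 10 heavy chains, which carry the motor, 8 were higher in testis and 2 in seminal vesicle. Of the heavy chains, Dnah3 averaged 346 ± 38.0 CPM in testis and 18.7 ± 14.9 CPM in seminal vesicle (SD, n = 2 each; edgeR adjusted p = 0.00136). The Y-linked sperm tail heavy chains kl-2 and kl-5 were higher in testis by 201-fold and 61.2-fold. The sizes of these folds rest on few seminal vesicle reads, 2 and 2 for kl-2 and 10 and 13 for kl-5. The 95% interval of the kl-2 fold ran from 115 to 350. The heavy chain of cytoplasmic dynein, Dhc64C, went the other way, at 43.1 ± 1.98 CPM in testis and 280 ± 64.0 CPM in seminal vesicle (edgeR adjusted p = 0.000244).

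Of 16 other dynein chains tested, which include Sdic1 and Sdic4, 15 were higher in testis and 1, the cytoplasmic light intermediate chain Dlic, was higher in seminal vesicle. Of all genes tested, 44.5% were higher in testis and 42.1% in seminal vesicle. The median log2 fold change of the 16 chains was 4.92. CG10859 averaged 753 ± 42.7 CPM in testis and 20.8 ± 11.3 CPM in seminal vesicle, and CG9313 averaged 502 ± 14.4 CPM in testis and 21.7 ± 14.0 CPM in seminal vesicle (SD, n = 2 each; edgeR adjusted p = 0.000206 and 0.00049). The largest folds were those of CG16837 (108-fold) and CG10822 (64.6-fold). They rest on few seminal vesicle reads, 3 and 9 for CG16837 and 5 and 10 for CG10822. Dlic averaged 17.2 CPM in testis and 156 CPM in seminal vesicle and was named after its value was seen.

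Dynactin is the complex that ties cytoplasmic dynein to cargo and activates it. Of its 10 listed members, 8 (80%) were higher in seminal vesicle, against 42.1% of all genes tested. None was higher in testis, where 44.5% of all genes tested were. The median log2 fold change of the 10 was -1.54. The capping protein gene cpb, whose product also caps actin filaments outside dynactin, averaged 18.1 ± 2.02 CPM in testis and 155 ± 1.13 CPM in seminal vesicle (edgeR adjusted p = 6.58e-05). Arp1, which forms the dynactin filament, averaged 42.9 ± 0.83 CPM in testis and 115 ± 7.76 CPM in seminal vesicle (edgeR adjusted p = 0.000759). DCTN3-p24 had a log2 fold change of -2.74 ± 0.19. The intermediate chain that dynactin binds, sw, was among the genes not called.

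Cofactors and adaptors of cytoplasmic dynein had 7 of 13 members (53.8%) higher in testis and 6 (46.2%) in seminal vesicle, near the shares of all genes tested, 44.5% and 42.1%. mud, a NuMA relative that anchors dynein at the cell cortex and spindle poles, averaged 299 ± 0.338 CPM in testis and 11.4 ± 7.82 CPM in seminal vesicle. egl, an adaptor for RNA cargo, averaged 5.61 ± 0.342 CPM in testis and 101 ± 16.4 CPM in seminal vesicle. nuf, a Rab11 effector, averaged 23.5 ± 4.45 CPM in testis and 302 ± 51.2 CPM in seminal vesicle (edgeR adjusted p at most 0.000466 for these 3). Asciz, a transcription factor that promotes ctp expression in flies, was higher in testis, at a mean of 13.2 CPM in testis and 3.60 CPM in seminal vesicle (edgeR adjusted p = 0.000276), while ctp was higher in seminal vesicle; it was named after its value was seen. Of 7 axonemal dynein assembly factors tested, 6 were higher in testis, among them dtr (87.2-fold) and Dnaaf3 (86.2-fold). In the seminal vesicle libraries dtr had 18 and 34 reads and Dnaaf3 had 7 and 14. The remaining factor, Nop17l, averaged 153 ± 0.636 CPM in testis and 100 ± 28.6 CPM in seminal vesicle and did not pass (edgeR adjusted p = 0.0779).

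**Figure D5:**
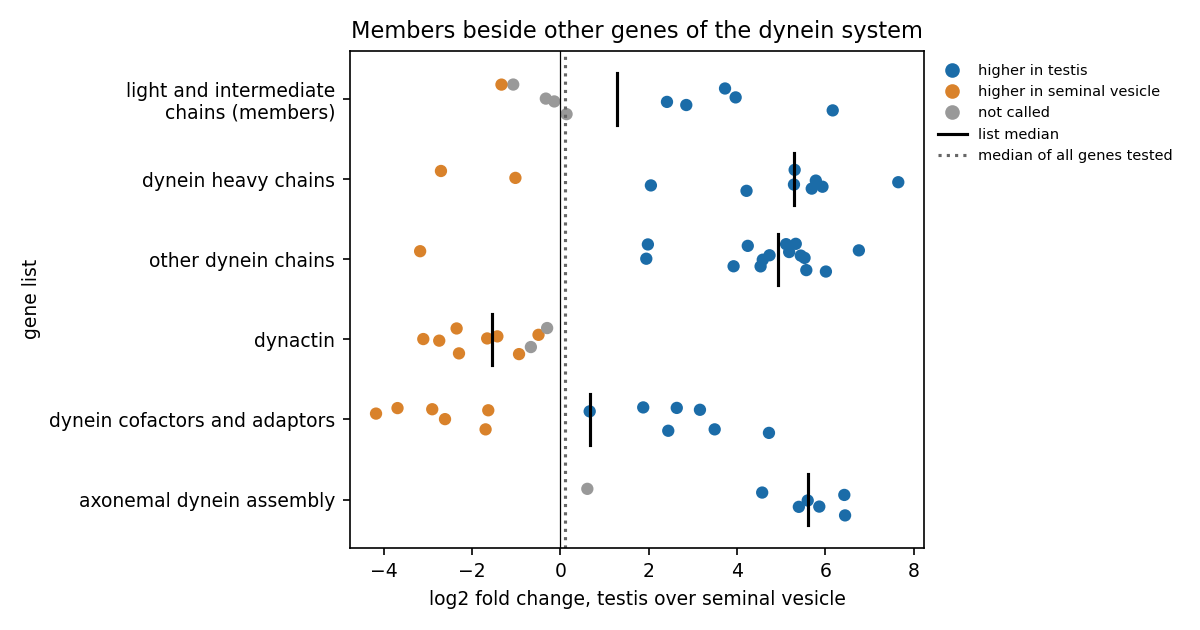
Log2 fold change, testis over seminal vesicle, of the 10 light and intermediate chains and of 5 lists of other dynein-system genes, 1 point a gene, with vertical bars for list medians and a dotted line for the median of all genes tested. Dynactin lies to the seminal vesicle side (median -1.54), heavy chains (5.30), other chains (4.92) and assembly factors (5.60) to the testis side, and the 10 chain genes on both (median 1.28).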

How the data were processed

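The authors deposited raw counts of reads per gene for each library. Per the submitters' processing notes the tools were CASAVA 1.8.2, TopHat2 2.1.0 and HTSeq 0.6.1p1, and per the labels the libraries were stranded, single-end and mapped to FlyBase release 6.06; counting settings are not given in the sources used here. Library sizes and tests used gene rows only, without the 96 spike-in and 5 summary rows. Symbols, exon lengths and coordinates were taken from Ensembl's later annotation of the Release 6 assembly.

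Genes were filtered with filterByExpr (minimum count 10, minimum total 15), scaled by TMM, and fitted in edgeR 4.0.16 (R 4.3.3) with its robust quasi-likelihood F test, testis over seminal vesicle. The standard error is the log2 fold change over the square root of F. The steps were run on simulated counts in which only a small part of the genes differed between tissues. In the real data 86.6% of genes tested passed, so the simulation does not cover TMM scaling under such wide differences. Shares of reads have 95% Wilson intervals. Intervals cover counting error only.

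The 10 genes and the lists were chosen with earlier results of these data known. Named from each list are the 2 genes with the highest mean level and at most 2 called genes with the largest fold, and others are said to be named after their values were seen. Of 64 list entries, 62 matched a row of the files, 1 of them repeating a gene of another list. Other scalings (library size, spike-ins, DESeq2 size factors), filters (none, or 5 CPM in 2 libraries) and tests (DESeq2 1.42.0, voom in limma 3.58.1, a 2-fold test) were run, as were a threshold of 0.01, a block for replicate number and fits omitting 1 library. Sums of the Sdic rows alone, shares counting every Sdic row, transcript lengths and values relative to the median gene were added with the values known. The design text implies that equal replicate numbers share a dissection day, and over genes the difference between testis replicates correlated at 0.0494 with that between seminal vesicle replicates.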

Additional observations from a re-analysis of the deposited data

How the results depend on the processing

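The same 5 chain genes were called higher in testis under 13 of 14 alternatives to the reported fit, the exception being spike-in scaling, which added sw, robl and Dlc90F and gave 8. The number higher in seminal vesicle was 0 with spike-in scaling and against 2-fold, 2 with the filter of 5 CPM, and 1 to 2 over fits without 1 library. Such fits leave a tissue with 1 library, assumed to vary like the other tissue. Spike-in scaling, whose pools differed between the tissues and which is therefore confounded with tissue, moved the listed dynein genes higher in seminal vesicle from 17 to 10 and all genes from 4944 to 3272, with 6372 against 5223 higher in testis. The median log2 fold change of all genes moved by 0.38 with library size only and by 1.06 with spike-in scaling. The sign of sw turned with library size only (0.052), spike-in scaling (0.74) and the sum with the Sdic rows (2.18). That of robl turned with library size only (0.23), spike-in scaling (0.90), and over fits without 1 library, where it ran from -0.56 (without testis replicate 2) to 0.056 (without testis replicate 1) and was 0.05 without seminal vesicle replicate 1. Relative to the median of all genes, sw stayed at -0.44 with library size scaling and with spike-in scaling, and robl at -0.26 and -0.28. Sdic2 turned in the sum with sw (2.18) and in the sum of Sdic rows (4.04). These turns, and that of sw in the sum with the Sdic rows, came by construction. The Sdic1, SdicC and Sdic4 rows held most of the testis reads of both sums. The cause of the other moves was not tested. With the replicate block, 5 chain genes were higher in testis and 1 was so in seminal vesicle, and the block changed no call among the 10. Depth limits Sdic2, with 17 testis and 23 seminal vesicle reads, and Dic61B in seminal vesicle, with 36.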

Other observations

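The testis libraries differed from each other for part of the 10 genes. The ratio of testis replicate 2 to replicate 1 was 1.51 for robl, 1.49 for robl22E and 1.33 for robl37BC, but 1.03 for robl62A and 1.02 for Dlc90F. It was 0.768 for ctp and 0.677 for Sdic2, which rests on 7 and 10 reads. The summed spermatocyte and spermatid markers had a ratio of 1.14 in testis and 2.01 in seminal vesicle, where robl had 0.776.

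Of all reads listed in the files, 3.51% and 3.53% in testis and 1.57% and 1.66% in seminal vesicle were set aside by the counting as falling on more than 1 gene. The 10 chain genes other than ctp share no annotated exon base with another gene.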
